A study of Mus musculus with 6 samples.

Results

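Gamma-aminobutyric acid (GABA), glycine and glutamate are the fast transmitters of the hindbrain, and a neuron is commonly assigned to one of them by the enzymes and transporters it makes. This account follows 7 such genes in rhombomere 4 of mouse embryos. They are Gad1 and Gad2, which encode the glutamate decarboxylases that make GABA, Slc32a1, the vesicular transporter of GABA and glycine, Slc6a5 and Slc6a9, the glycine transporters GlyT2 and GlyT1 of the plasma membrane, and Slc17a6 and Slc17a7, the vesicular glutamate transporters VGLUT2 and VGLUT1. The members were all probe sets of the array whose single annotated gene symbol is one of these names. This gave 10 of the 22626 probe sets tested, for 6 of the 7 genes. Slc17a7 matched no probe set by this rule and was not analysed here.

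The study compared wild-type with Hoxb1 mutant embryos at E10.5, to find genes whose transcripts change when rhombomere 4 lacks Hoxb1, the homeobox gene that specifies its identity. Each group held 3 Affymetrix 430A arrays, each from an independent pool of rhombomere 4 tissue from several embryos, and the labels add that arch tissue around the segment was included. No source used here states the mutant allele, its zygosity or the strain. Because each sample is a pool of whole tissue, fewer cells of a type and less RNA per cell cannot be told apart.

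On the 6 arrays the median intensity lay between 187 and 214, and the correlation across probe sets was 0.976 to 0.984 for arrays of 1 group and 0.973 to 0.983 for arrays of different groups. Hoxb1 itself (1453501_at) gave 341, 378 and 588 on the wild-type arrays and 60.8, 35.3 and 50.03 on the mutant arrays. Set against the background level defined below, wild type was at least 6.88-fold higher. The drop of Hoxb1 thus went with the group labels. No source used here says where that probe set lies relative to the mutation, so its signal does not describe the allele. Wild-type replicates 2 and 3 stood apart in the control signal for 18S ribosomal RNA, where their mean log2 values were 12.1 and 11.3 and the other 4 arrays lay between 6.36 and 7.03. Values without both, and with the 18S signal as a covariate, are given for each member gene detected on any array. Some other genes named below have them too. Without both, the lone wild-type array is assumed to vary like the mutants.

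At this stage the first hindbrain neurons have left the cell cycle and extend axons, while most of the wall of the neural tube is still made of dividing progenitors. Inhibitory neurons load GABA and glycine into vesicles through the same transporter, with Gad1 and Gad2 supplying the GABA and Slc6a5 the glycine. Excitatory neurons of the hindbrain mostly use VGLUT2. Slc6a9 is best known from glia, which clear glycine around synapses, so its transcript is not a marker of glycinergic neurons alone.

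Hoxb1 protein binds DNA together with Pbx partners at a bipartite motif, written here as TGATNNAT, and often near a Meis or Prep site, TGACAG. Both motifs were searched on both strands of the 250 bases before each listed gene start in RefSeq (build GRCm38.p6), which holds 11 starts for the 7 genes. TGATNNAT was found before 3 of these starts, of 3 genes, against 7.68% of all 32851 starts in the table. TGACAG was found before 2 of them, against 15.9% of all starts. The 3 stretches with the Hox-Pbx letters are shown because they belong to genes with a signal above background on these arrays. All lie on the plus strand, at chr7:49910049-49910298 for Slc6a5, chr4:117835008-117835257 for Slc6a9 and chr7:51624387-51624636 for Slc17a6, with the match in capitals. In Slc6a5 a match on each strand overlaps within the same capitals. The Slc6a9 match is on the minus strand, so its capitals show the reverse complement of the motif. The Slc17a6 stretch precedes the more downstream of its 2 listed starts.
Slc6a5: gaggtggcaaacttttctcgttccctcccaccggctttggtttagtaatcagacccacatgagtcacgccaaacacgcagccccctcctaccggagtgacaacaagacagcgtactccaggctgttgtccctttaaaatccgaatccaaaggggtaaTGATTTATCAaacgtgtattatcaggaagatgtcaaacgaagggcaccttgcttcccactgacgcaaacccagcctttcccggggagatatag
Slc6a9: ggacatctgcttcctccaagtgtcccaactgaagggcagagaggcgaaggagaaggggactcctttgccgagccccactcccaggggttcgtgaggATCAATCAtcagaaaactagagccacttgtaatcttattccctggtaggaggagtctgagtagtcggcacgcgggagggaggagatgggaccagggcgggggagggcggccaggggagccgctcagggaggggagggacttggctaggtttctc
Slc17a6: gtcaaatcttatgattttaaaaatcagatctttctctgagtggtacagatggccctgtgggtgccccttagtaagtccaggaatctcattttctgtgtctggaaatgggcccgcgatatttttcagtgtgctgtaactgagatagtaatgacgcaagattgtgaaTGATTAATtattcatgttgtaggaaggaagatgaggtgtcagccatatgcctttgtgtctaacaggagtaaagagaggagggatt
A match is a description of letters, and no binding was measured here. Starts of Gad1, Gad2, Slc32a1 and Slc17a7 held neither motif in this window.

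Signal was first set against background. Control probe sets for bacterial transcripts with no mouse target, 27 in number, had a median intensity of 12.7 and a 95th percentile of 61.5 over the 6 arrays, and their highest value was 122. Of the 10 member probe sets, 6 lay above 61.5 on every array, 1 did so on some arrays, and 3 lay at or below it on all of them. Over all probe sets tested, 68.2% lay above it on every array. The genes above background on all arrays were Gad2, Slc6a5, Slc6a9 and Slc17a6, whereas Gad1 and Slc32a1 were not. With 122 as the level, 2 member probe sets remained above it on all arrays, both of Slc6a9. Intensities of different probe sets are not compared with each other, since their binding strengths differ.

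No member differed between the groups at the threshold used, an adjusted p of 0.05 in limma over all probe sets. The adjusted p of the 10 probe sets ran from 0.833 to 0.975, and 0 of the 22626 probe sets, 0%, passed. At an unadjusted limma p under 0.05 there were 0 member probe sets, against 5.76% of all. The mean on the scale of log2(intensity + 16) was lower in mutants for 6 and higher for 4, where 54.2% of all probe sets were lower. The median log2 difference of the members was -0.11, beside -0.02 over all probe sets. Differences are given as mutant minus wild type, and this scale understates the change of dim probe sets. Their standard errors, between 0.12 and 0.43, bound what 3 arrays against 3 could show.

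**Figure D1:**
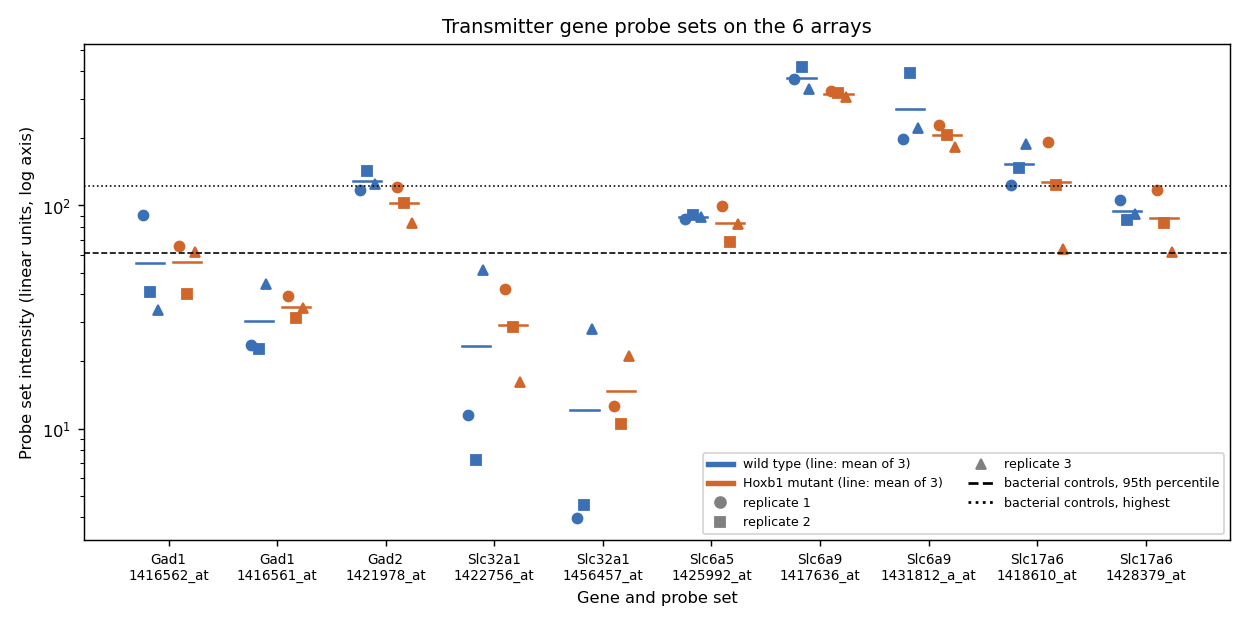
Intensity of each transmitter probe set on the 3 wild-type arrays (blue) and the 3 Hoxb1 mutant arrays (orange), on a log axis, with group means as short lines. The dashed line marks the bacterial 95th percentile of 61.5 and the dotted line their highest value of 122. Both Slc32a1 probe sets and 1 of Gad1 lie below the dashed line on all arrays.

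Among the enzymes of GABA synthesis, Gad2 was above background in every sample. Its probe set 1421978_at gave 117, 143 and 125 in wild-type replicates 1 to 3, and 121, 102 and 83.8 in mutant replicates 1 to 3. Mutant replicates 2 and 3 lay below all wild-type arrays, but mutant replicate 1 lay among them, so the groups overlapped. The means were 128 ± 13.1 and 102 ± 18.8 (SD, n = 3), a log2 difference of -0.29 (SE 0.15) with a limma adjusted p of 0.833. The 95% interval ran from -0.66 to 0.07, that is, from 0.632-fold to 1.05-fold of wild type. Without wild-type replicates 2 and 3 the difference was -0.18, and with the 18S covariate -0.16.

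Gad1 was at the edge of detection. Its probe set 1416562_at gave 90.6, 41.1 and 34.0 on the wild-type arrays and 66.1, 40.3 and 61.9 on the mutant arrays, so 1 wild-type and 2 mutant arrays exceeded the bacterial 95th percentile. The highest and the lowest value both came from wild type, and the group means were 55.2 ± 30.8 and 56.1 ± 13.9 (SD, n = 3). The log2 difference was 0.08 (SE 0.31), with an interval from -0.65 to 0.81 and a limma adjusted p of 0.975. Its sign turned in 6 of 16 alternative settings, to -0.58 without wild-type replicates 2 and 3 and -0.49 with the 18S covariate among them. The other Gad1 probe set, 1416561_at, lay between 22.8 and 44.3 on the 6 arrays, all within the range of the bacterial controls. No fold is given for it.

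Slc32a1, which fills synaptic vesicles with GABA or glycine, gave no signal above background. Its probe set 1422756_at read 11.5, 7.22 and 51.6 on the wild-type arrays and 42.4, 28.5 and 16.1 on the mutant arrays. The other, 1456457_at, read 3.98, 4.55 and 27.8 on the wild-type arrays and 12.6, 10.47 and 21.0 on the mutant arrays. Wild-type replicate 3 was the highest array in both, and still lay below 61.5. A level this low gives a bound only, and a difference between the groups was not detectable. Without wild-type replicate 3, both Slc32a1 probe sets and the dimmer one of Gad1 had an unadjusted limma p under 0.05, higher in mutants, on values that all lie within background.

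Slc6a5, the glycine transporter of glycinergic neurons, was above background on every array and close in both groups. Its only probe set, 1425992_at, gave 87.2, 90.7 and 88.6 on the wild-type arrays and 99.1, 68.6 and 82.2 on the mutant arrays. All these values lay below the highest bacterial control value, 122. The wild-type arrays fell inside the range of the mutant arrays. The means were 88.8 ± 1.75 and 83.3 ± 15.2 (SD, n = 3), a log2 difference of -0.09 (SE 0.14) with a limma adjusted p of 0.934. The interval from -0.42 to 0.25 corresponds to 0.745-fold to 1.19-fold of wild type. The difference was -0.067 without wild-type replicates 2 and 3 and -0.041 with the 18S covariate.

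Slc6a9 was the member whose groups did not overlap, in 1 of its 2 probe sets. The probe set 1417636_at gave 369, 419 and 333 on the wild-type arrays and 326, 319.9 and 305 on the mutant arrays, with all 3 mutant arrays below the wild-type ones. The gap between the groups was small, from 326 to 333. Separation of this kind in 1 of 10 member probe sets compares with 12.0% of all probe sets in either direction, and 7.08% with mutants lower. The means were 374 ± 43.6 and 317 ± 10.6 (SD, n = 3), a log2 difference of -0.22 (SE 0.12) with a limma adjusted p of 0.836. An exact permutation of the 6 arrays gave 0.1, 2-sided, the smallest p that 3 against 3 allow. The interval ran from -0.52 to 0.08, or 0.699-fold to 1.05-fold.

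The second Slc6a9 probe set, 1431812_a_at, gave 199.5, 394 and 222 on the wild-type arrays and 231, 208 and 183 on the mutant arrays. Wild-type replicate 2 stood apart from the other 5 arrays, which lay between 183 and 231. The means were 272 ± 106 and 207 ± 23.8 (SD, n = 3), a log2 difference of -0.31 (SE 0.25; limma adjusted p = 0.869). Wild-type replicate 2 is also the array with the highest 18S control signal. Without wild-type replicates 2 and 3, the log2 difference was 0.045 in this probe set and -0.21 in 1417636_at. With the 18S signal as a covariate they were 0.084 and -0.18.

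Slc17a6, which encodes VGLUT2, varied more among mutant pools than between the groups. The probe set 1418610_at gave 123, 147 and 189 on the wild-type arrays and 193, 124 and 63.8 on the mutant arrays. The highest and the lowest of the 6 arrays were thus both mutant, 3.03-fold apart. The second probe set, 1428379_at, gave 106, 85.7 and 91.9 on the wild-type arrays and 118, 83.9 and 61.7 on the mutant arrays, with mutant replicate 1 again highest and mutant replicate 3 again lowest. Mutant replicate 3 was just above the bacterial 95th percentile in both. The log2 differences were -0.33 (SE 0.35) and -0.12 (SE 0.21), with limma adjusted p of 0.892 and 0.944. Without mutant replicate 3 they were 0.033 and 0.070. Without wild-type replicates 2 and 3 they were -0.071 and -0.27, and with the 18S covariate -0.059 and -0.22, so the first probe set moved towards 0 and the second away from it. The interval of the first probe set was the widest of the detected members, from -1.17 to 0.50, or 0.445-fold to 1.42-fold of wild type.

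**Figure D2:**
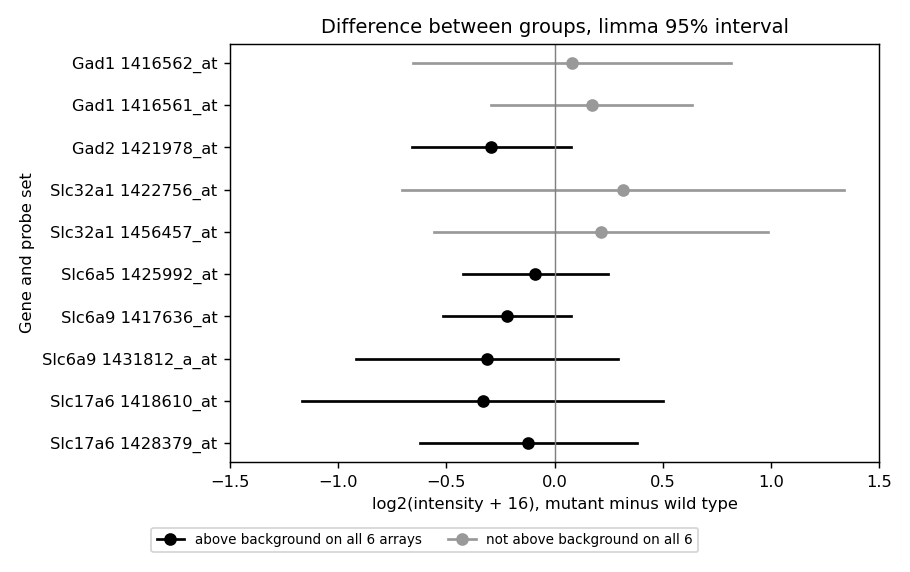
Log2 difference between mutant and wild-type arrays for each transmitter probe set (point) with its 95% interval from limma (line), in grey where the probe set was not above background on all 6 arrays. Every interval includes 0.

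Mutant replicate 3, the array with the lowest Gad2, Slc6a9 and Slc17a6 signals, stood at an end of several other measures too. It had the lowest median intensity, 187, the lowest sums of pan-neuronal, progenitor, crest and arch, endothelial and macrophage markers, and the highest sum of erythroid markers. Wild-type replicate 3 stood at the other end of some of these. That array had the highest sums of pan-neuronal, progenitor, ganglion and placode, and crest and arch markers, and the lowest of erythroid and epithelial markers. Such sums of linear intensity are weighted by the brightest probe sets. Vim, at means of 11511 in wild type and 10949 in mutants, weighs most among progenitor markers, and Hba-x, Hbb-bh1 and Hbb-y among erythroid ones. The summed intensity of 12 pan-neuronal genes, among them Tubb3, Stmn2, Elavl3 and Dcx, was 18073, 17358 and 20528 on the wild-type arrays and 18322, 16485 and 14289 on the mutant arrays. All 12 were above background on every array, 11 had a lower mean log2 value in mutants, and their median log2 difference was -0.22. Over all genes, 73.1% were above background on every array, 54.5% were lower, and the median was -0.02. Neuronal markers were thus found in all 6 pools, with overlapping sums between the groups. Pan-neuronal genes do not tell neurons of the hindbrain from those of ganglia, so they do not test the segment label. The 10 progenitor markers, Sox2, Nes and Fabp7 among them, were above background on all arrays too, with sums of 23217 to 25377 in wild type and 22065 to 22954 in mutants. The 7 measured markers of sensory ganglia and placodes, which include excitatory neurons outside the neural tube, summed to 3115 to 3318 in wild type and 2837 to 2971 in mutants, again all above background. Of 12 crest and arch mesenchyme markers 10 were above background on all arrays, with sums of 9171 to 10967 and 8357 to 9179. Erythroid markers, 7 of 8 above background on all arrays, ran the other way on mutant replicate 3, at 41359.6 against 33886 to 39168 in wild type and 37400.0 and 38577 on the other mutant arrays. Endothelial markers, 8 of 9 above background, summed to 2504 to 2821 in wild type and 2479.8 to 2778 in mutants, and macrophage and leukocyte markers, 6 of 9, to 1658 to 1809 and 1316 to 2049. All 8 epithelial markers were above background, with sums of 2877 to 3811 and 2974 to 3771. The part of these differences in the transmitter values was not tested.

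**Figure D3:**
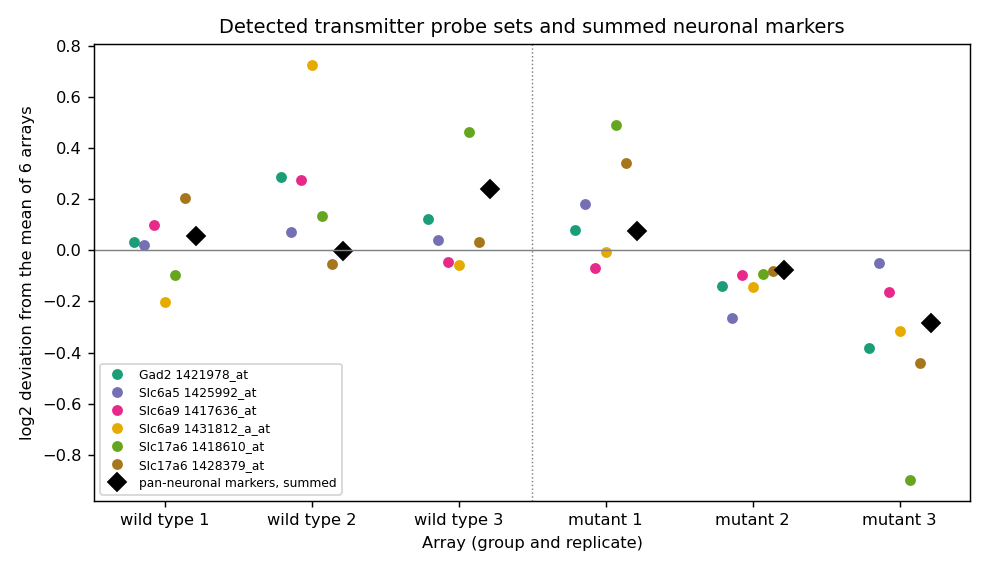
Deviation of each detected transmitter probe set (coloured points) from its own mean over the 6 arrays, on the scale of log2(intensity + 16), beside that of the log2 summed intensity of 12 pan-neuronal markers (black diamonds). On mutant replicate 3 the Slc17a6 probe set 1418610_at lies at -0.90 and the neuronal sum at -0.28, and all points there are below 0.

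The genes most like each detected member over the 6 arrays were listed as a description, by the Pearson correlation of log2 values among 14235 named probe sets above background. For Gad2 they were Cntln, Kcne3 and Tbx15 (r of 0.998, 0.995 and 0.994), and for Slc6a5 they were Tox4, Inmt and Mapk6 (0.996, 0.995 and 0.994). For Slc6a9 they were Slu7, Cpxm1 and Rabl6 (0.995, 0.992 and 0.990), and for Slc17a6 Ggps1, C1ql3 and Klhl11 (0.996, 0.994 and 0.991). None of the other transmitter genes stood among these. With 6 arrays that share their scaling, a search over so many probe sets finds high values by its size.

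The members were then set beside 9 lists of genes that make, move, release or sense these transmitters, or that specify the neurons using them, with 1 probe set per gene. Of 155 listed genes 110 were measured, the 6 members included, 71 above background on all arrays. None of the 110 passed the limma adjusted p of 0.05, as was the case for 0% of all genes. At an unadjusted limma p under 0.05, 7 were lower and 2 higher in mutants, against 3.76% and 1.70% of 12393 genes. The groups did not overlap in 9 genes, all with mutants lower, against 7.30% of all genes in that direction. Of the 110, 71 had a lower mean log2 value in mutants, where 54.5% of all genes did. Without wild-type replicates 2 and 3 the 7 lower and 2 higher became 1 and 1, and with the 18S covariate 2 and 4.

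No gene of the GABA lists passed the test. Of 16 measured GABA receptor and anchoring genes, 7 were above background on all arrays, where 73.1% of all genes were, and the median log2 difference was -0.11. Gphn, the gephyrin scaffold that anchors GABA and glycine receptors, gave 399 ± 46.8 in wild type and 334 ± 42.1 in mutants (SD, n = 3), with overlapping groups. The receptor subunits Gabrb2 and Gabrp gave 190.0 ± 15.8 and 158 ± 31.0, and 199 ± 41.7 and 160.4 ± 15.8, in the same order. Gabrg3 and Gabrr1, named after their values were seen, had the unadjusted p under 0.05 in this list, both higher in mutants. Their wild-type arrays were all at or below the bacterial 95th percentile, as were all mutant arrays of Gabrr1, and the groups overlapped in both genes. Among 6 measured genes of GABA synthesis, uptake and breakdown, Abat, the GABA transaminase, gave 218 ± 19.2 and 237 ± 49.0. The betaine and GABA transporter Slc6a12 did not overlap between groups but lay within background on all arrays.

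No gene of the glycine list passed the test. Of 10 measured, 6 were above background on all arrays, 0 had an unadjusted limma p under 0.05, and Slc6a9 alone did not overlap. Separate groups with mutants lower were found in 7.30% of all genes. The genes of the glycine cleavage system and of serine and glycine exchange were well above background, and Gcsh gave 2594 ± 107 in wild type and 2781 ± 259 in mutants (SD, n = 3). The glycine receptor subunits Glra1, Glra3, Glra4 and Glrb were not above background on all arrays.

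Among glutamate genes none passed the test either, and the receptor subunit Gria2 was the one with the smallest p. In 12 measured transport and metabolism genes, 0 had an unadjusted limma p under 0.05, with a median log2 difference of -0.03. The glial glutamate transporter Slc1a3 gave 140.2 ± 10.7 and 155 ± 16.5, the neutral amino acid transporter Slc1a4 gave 198 ± 40.6 and 157 ± 38.7, and the mitochondrial aminotransferase Got2 gave 3693 ± 323 and 3278 ± 120.1 with groups that did not overlap. In the second Got2 probe set, at 1382 ± 185 and 1179 ± 80.9, they overlapped. Of 15 measured receptor genes, 3 were above background on all arrays. One of them, Gria2, encodes the AMPA receptor subunit that limits calcium entry. Its probe set 1453098_at gave 170.3, 169 and 303 on the wild-type arrays and 162, 102 and 81.8 on the mutant arrays, so that the groups did not overlap. The log2 difference was -0.81 (SE 0.30; limma adjusted p = 0.833). Its other probe set, 1421970_a_at, gave 145 ± 4.01 and 112 ± 18.2, also without overlap, a log2 difference of -0.34 (SE 0.14). Without wild-type replicate 3 the first was -0.55. It was -0.55 without wild-type replicates 2 and 3, and -0.59 with the 18S covariate. Grin2d, an NMDA receptor subunit, gave 153 ± 19.7 and 157 ± 14.2, and the kainate receptor subunit Grik5, above background on 5 arrays, gave 163 ± 107 and 175 ± 19.8.

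Chloride cotransporters set the chloride gradient on which the effect of GABA and glycine depends. All 4 measured genes were above background on all arrays and had lower means in mutants, with a median log2 difference of -0.29. Among all genes 73.1% were above background on all arrays, 54.5% had lower means, and 7.30% had separate groups with mutants lower. Slc12a5, the neuronal chloride extruder KCC2, gave 237, 231 and 359.9 on the wild-type arrays and 214, 180.2 and 156 on the mutant arrays. The groups did not overlap, and the log2 difference was -0.53 (SE 0.20; limma adjusted p = 0.833). A second Slc12a5 probe set had mutants below wild type without overlap, but lay within background on all arrays. Slc12a4, the widely expressed KCC1, gave 226, 199.7 and 218 on the wild-type arrays and 156, 175 and 141 on the mutant arrays, again without overlap (-0.42, SE 0.12; limma adjusted p = 0.825). Slc12a2, the chloride importer NKCC1, gave 1298 ± 214 and 1147 ± 56.0 with overlapping groups. Without wild-type replicates 2 and 3 the differences of Slc12a5 and Slc12a4 were -0.35 and -0.49, and with the 18S covariate -0.39 and -0.50. Without wild-type replicate 3 alone they were -0.34 and -0.40, and that of Slc12a2 was -0.036.

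**Figure D4:**
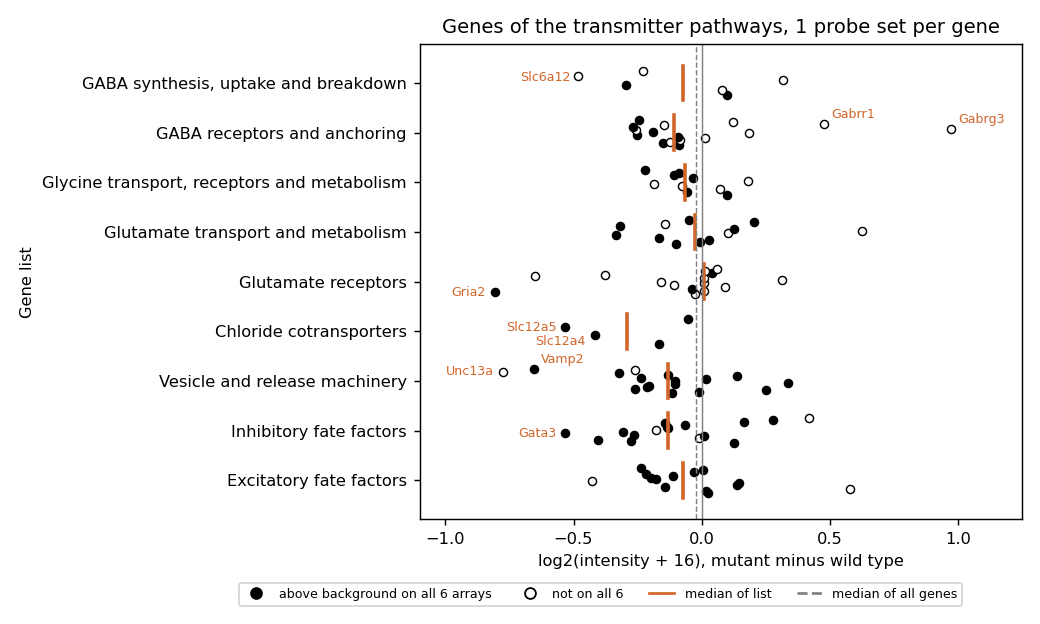
Log2 difference between mutant and wild-type arrays for each of 110 genes in 9 lists (points, filled where above background on all 6 arrays), with the list medians in orange and the median of all genes dashed. Genes with an unadjusted limma p under 0.05 are named, 7 to the left of 0 and 2 to the right, and no gene passed the adjusted threshold.

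No gene of vesicle release passed the test. Of 17 measured release genes, 15 were above background on all arrays and 13 had lower means in mutants. The shares of all genes were 73.1% and 54.5%. Vamp2, the vesicle SNARE synaptobrevin, gave 256, 316 and 319 on the wild-type arrays and 235, 178 and 144 on the mutant arrays, without overlap. The log2 difference was -0.66 (SE 0.19; limma adjusted p = 0.822), while its second probe set gave -0.11 (SE 0.16). The first was -0.46 without wild-type replicates 2 and 3, and -0.44 with the 18S covariate. The calcium-binding vesicle protein gene Syt4 gave 126 ± 17.7 and 97.4 ± 10.3 (SD, n = 3), without overlap. In its second probe set the groups overlapped, with a log2 difference of -0.16 (SE 0.18). Separate groups with mutants lower were thus found in 2 of the 17 genes, against 7.30% of all genes. Cplx2, a complexin, gave 494 ± 54.9 and 410.2 ± 53.8, with overlap. Vamp2 and Unc13a, a priming factor named after its values were seen, had an unadjusted limma p under 0.05. Unc13a gave 63.0 ± 10.9 and 33.0 ± 20.5, with overlap.

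Of 16 measured inhibitory fate factors, 11 had lower means in mutants and 1, Gata3, had an unadjusted limma p under 0.05. Lower means held in 54.5% of all genes, and an unadjusted limma p under 0.05 with mutants lower in 3.76%. Tal1 and Tal2, named after their values were seen, were among the 5 with higher means (0.28, SE 0.23, and 0.42, SE 0.26). Tal2 was above background on only 2 arrays. Tal1 was highest on mutant replicate 3, at 317, and lowest on wild-type replicate 3, at 150. The sum of erythroid markers was highest and lowest on the same arrays, and a link was not tested. Gata3, a zinc finger factor of ventral interneurons, gave 130, 139 and 151 on the wild-type arrays and 98.9, 78.2 and 99.1 on the mutant arrays, without overlap (-0.53, SE 0.13; limma adjusted p = 0.719). Its difference was -0.44 without wild-type replicates 2 and 3, and -0.44 with the 18S covariate. Gata2 and Gsx1 gave 413 ± 29.1 and 343 ± 54.1, and 171 ± 30.5 and 135 ± 26.0, with overlap. A second Gata2 probe set, above background on 1 array only, had mutants below wild type without overlap. Of 14 measured excitatory fate factors, 8 had lower means and 0 reached an unadjusted p under 0.05. Tlx3, which selects glutamatergic over GABAergic fate in dorsal neurons, gave 273 ± 44.6 and 228 ± 25.8. Neurog2 and Lhx9 gave 305 ± 57.6 and 262 ± 23.9, and 110.1 ± 5.89 and 124 ± 18.3. The median log2 differences were -0.13 for inhibitory and -0.07 for excitatory factors, and their difference was not tested. Dlx5 is also among the crest and arch markers and Neurog1 among the ganglion and placode markers. In these pools neither list is therefore particular to hindbrain neurons.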

How the data were processed

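RNA from 3 wild-type and 3 Hoxb1 mutant pools was hybridised to Affymetrix 430A arrays. The values the authors deposited are linear intensities, 1 for each probe set on each array. The submitters' processing notes name affy, without a version. No source used here states the expression algorithm, a correction of background or any detection call. By the values, each array was scaled to a mean of 500.0 with 2% trimmed at each end, and nothing was normalized further.

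Control probe sets, 64 in number, were left out and the other 22626 tested. Of these, 20380 carry 1 gene symbol from the platform annotation, updated by Entrez identifier from a RefSeq table (GRCm38.p6), and 691 several, which were not named. Background is the 95th percentile of 27 bacterial controls, pooled over arrays. Values were transformed to log2(intensity + 16) and tested in limma (version 3.58.1, R 4.3.3; lmFit and eBayes, 2-sided, no covariate), adjusted by Benjamini-Hochberg over all probe sets tested, threshold 0.05. The step was tested on simulated data. Values are mean ± SD of 3 arrays, whose number limits the precision. For lists, the probe set of highest mean stood for a gene. Named were all members, per list the 3 genes of smallest p among those above background on all arrays of at least 1 group, and any gene with separate groups and an unadjusted p under 0.05, and 3 most correlated genes per detected member. Members, lists and alternatives were chosen with earlier results of these data known. Replicate numbers were not taken as pairs, though the titles of same-numbered samples carry matching codes. Alternatives were quantile normalization, median centring, pseudocounts of 1 and 64, filters on dim probe sets, eBayes with trend, array weights, a replicate block, an 18S covariate and leaving out arrays.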

Additional observations from a re-analysis of the deposited data

How the results depend on the processing

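Under all 17 alternative fits, 0 member probe sets passed a limma adjusted p of 0.05. The number with an unadjusted p under 0.05 was 0 under the fits on all 6 arrays, and 0 to 3 when 1 array was left out. It was 3 without wild-type replicate 3, all within background, and 1, Gad2, without mutant replicate 1. The number above background on all arrays was 2 with the highest bacterial value as the level. Of Gad1 (1416562_at) the log2 difference was -0.18 with array weights, -0.49 with the 18S covariate, -0.58 without wild-type replicates 2 and 3, where the lone wild-type array is assumed to vary like the mutants, and -0.13 to 0.41 without 1 array. The Slc6a9 probe set 1431812_a_at gave 0.084 with the 18S covariate and 0.045 without wild-type replicates 2 and 3. Without 1 array Slc6a5 ran from -0.20 to 0.020 and Slc17a6 from -0.66 to 0.033 (1418610_at) and -0.32 to 0.070 (1428379_at). The other members kept their sign.

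Over all probe sets, the number past the adjusted threshold was 0, and became 3 with quantile normalization, 4 with median centring, 2 with either filter on dim probe sets, 3 with trend and robust settings and 4 with array weights. With an unadjusted p under 0.05 there were 1303, against 2093 with array weights and 1059 to 1975 without 1 array, the latter without mutant replicate 1. Of the 1303, 67.4% were lower in mutants, against 51.8% with quantile normalization and 45.9% with median centring. With the replicate block the counts were 0 past the adjusted threshold and 1361 at the unadjusted one, and 0 member probe sets in either. Deviations of same-numbered samples correlated at 0.05, -0.02 and 0.04, and the numbers were not taken as pairs. With so few samples these values cannot show that the samples were collected without pairing. The counts in the gene lists under these settings were added after seeing the data. Signal close to background limits what could be seen for Gad1 and Slc32a1. Slc6a5 and the Slc17a6 probe set 1428379_at were above background but below the highest bacterial value, 122, on all arrays. Gad2 exceeded that value on 2 arrays. The same limit applies to them in part.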
